A study of Mus musculus with 12 samples.

Results

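The genes described here set the level of the transcription factor HIF-1, hold it in check, or are switched on by it: Hif1a, Arnt, Vhl, Egln1, Egln2, Egln3, Hif1an, Bnip3, P4ha1 and Vegfa. They were chosen by name, as the subunits of HIF-1, the enzymes and the ubiquitin ligase subunit that restrain it, and 3 of its targets. The rule uses no measured value, but earlier results of these data were known when the genes were chosen. All 10 were found among the 13780 genes of the count table, and all 10 passed the filter on low counts, which kept 13767 genes.

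RNA-seq was measured in 12 libraries of CD8+ T cells purified by positive magnetic bead selection from the spleens of C57BL/6J mice of 8 to 12 weeks, and the labels mark the activated libraries as wild type (WT). The 4 naïve libraries came from cells frozen right after isolation. The other libraries came from cells activated for 72 h with beads carrying antibodies to CD3 and CD28 and with 10 U/ml IL-2, 4 of them in plain media (media) and 4 in media with 40 mM sodium lactate (lactate), so every activated library shares the beads and the IL-2. The labels call the media group vehicle, no sodium chloride group is among these libraries, and lactate therefore cannot be told apart from the added sodium and osmolarity. The activated libraries came from 5 donor mice, and with donor tags read within each run of library numbers, 3 of these mice gave 1 library of each condition.

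HIF-1 is a dimer of an oxygen-regulated α subunit, encoded by Hif1a, and a stable β subunit, encoded by Arnt. When oxygen is present, the prolyl hydroxylases PHD1 (Egln2), PHD2 (Egln1) and PHD3 (Egln3) hydroxylate the α subunit, the VHL protein then binds it and the ligase built around VHL marks it for destruction, while the asparaginyl hydroxylase FIH (Hif1an) blocks its contact with coactivators. HIF-1 binds a short DNA element with the core ACGTG or GCGTG and raises genes of glycolysis, mitophagy, collagen modification and vessel growth, and also Egln1 and Egln3, which closes a feedback loop. In CD8+ T cells, HIF-1α protein rises after antigen receptor signalling and is tied to glycolysis and effector function. RNA counts do not show the protein, its hydroxylation or its activity.

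Because Egln1, Egln3, Bnip3 and P4ha1 are regarded as direct targets, the bases before their start sites are shown, with each match to ACGTG or GCGTG, or to their reverse complements, in capitals. Vegfa, also a target, is not printed, and its matches are given below. The sequences are from RefSeq on GRCm38.p6, 5′ to 3′ on the strand of the gene, and stop before the first annotated exon.
Bnip3, chr7:138909520-138909756, minus strand: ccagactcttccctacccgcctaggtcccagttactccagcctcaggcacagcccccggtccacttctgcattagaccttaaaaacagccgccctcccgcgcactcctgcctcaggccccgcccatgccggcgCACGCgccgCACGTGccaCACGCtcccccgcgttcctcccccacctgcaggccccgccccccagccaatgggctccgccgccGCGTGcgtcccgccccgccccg
P4ha1, chr10:59323046-59323295, plus strand: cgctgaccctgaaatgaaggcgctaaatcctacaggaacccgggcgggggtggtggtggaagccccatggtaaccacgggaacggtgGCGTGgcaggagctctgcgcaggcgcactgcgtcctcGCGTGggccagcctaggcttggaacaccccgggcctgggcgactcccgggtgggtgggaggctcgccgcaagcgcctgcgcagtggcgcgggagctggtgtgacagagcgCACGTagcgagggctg
Egln1, chr8:124949325-124949504, minus strand: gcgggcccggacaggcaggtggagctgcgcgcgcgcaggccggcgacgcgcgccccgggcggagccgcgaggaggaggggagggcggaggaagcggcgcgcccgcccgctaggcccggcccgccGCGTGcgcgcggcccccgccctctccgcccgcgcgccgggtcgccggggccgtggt
Egln3, chr12:54203875-54204124, minus strand: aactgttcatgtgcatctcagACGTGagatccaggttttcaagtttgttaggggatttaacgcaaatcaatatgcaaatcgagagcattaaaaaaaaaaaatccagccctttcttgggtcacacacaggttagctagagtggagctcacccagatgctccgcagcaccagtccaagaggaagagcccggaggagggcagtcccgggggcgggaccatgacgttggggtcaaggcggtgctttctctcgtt

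In the 250 bases before the RefSeq start, Bnip3 held 5 matches, of which 1 palindrome, CACGTG, counts on both strands. P4ha1 held 3 matches, Egln1 2 and Egln3 1, the second match of Egln1 lying beyond the stretch printed. All 10 genes had a RefSeq entry, and 8 of 10 held a match before at least 1 of their listed starts. Vegfa held 0 matches before its upstream start and 2 before another listed start, which lies inside the gene. The only listed start of Hif1a, with 3 matches, also lies inside the annotated gene. Egln2 held 4 matches before its upstream start and 1 before another listed start inside the gene. Arnt held 1, and Vhl and Hif1an held none. Of all 32851 promoter entries, 38.6% held ACGTG or GCGTG on either strand, and 6.02% held CACGTG, which overlaps ACGTG on both strands. These shares are per entry, where the 8 of 10 counts a gene with a match in any of its entries. A match describes these letters and says nothing of binding.

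Library sizes overlapped between the groups, at 16439750 to 18601223 counts in naïve, 15842423 to 20922872 in media and 14726904 to 21478137 in lactate. The 8 markers of CD8 T cells, among them Cd8a and Cd3e, were at or above 1 CPM (counts scaled to a common library size, with the TMM correction for composition) in every library. Their sum was 2675 to 5127 CPM in naïve, 3967 to 4757 in media and 3138 to 3784 in lactate, so every lactate library lay below every media library. Within the list Cd2 and Cd8b1 went the other way. Cd2 had 216 to 237 CPM in media and 304 to 338 in lactate. Cd8b1 had 369 to 479 CPM in media and 443 to 583 in lactate, with overlap. Naïve libraries also carried markers of other cells. Summed over its list, the B cell level was 626 to 1503 CPM in naïve against 10.3 to 18.6 in media and 6.56 to 8.07 in lactate, and the myeloid level was 914 to 2498 CPM in naïve against 13.0 to 22.3 in media and 6.20 to 11.7 in lactate. All 8 B cell and all 10 myeloid markers reached 1 CPM in each naïve library. The red cell sum ran from 98.2 to 4300.0 CPM among naïve libraries, for 6 markers in the table of 7 listed. The dendritic and NK sums of naïve libraries were 681 to 1211 and 121 to 308 CPM. The part of these cells in the comparisons with naïve was not tested. Between the activated groups the dendritic sum was 11.8 to 30.5 CPM in media and 82.2 to 93.4 in lactate, mostly Batf3 in lactate (76.7 to 87.2 CPM, against 5.02 to 24.6 in media), with Xcr1 and Siglech at 0 in all 8 libraries. The NK sum was 4.90 to 8.46 CPM in media and 12.0 to 38.3 in lactate, mostly Eomes, and Ncr1 was at 0 in 7 of the 8. In the CD4 list, the sum was 48.0 to 60.7 CPM in media and 83.7 to 96.6 in lactate, mostly Zbtb7b, with Cd4 below 1 CPM in all 8. The part of these genes' levels, and of the CD8 T cell sum, in the comparison of lactate and media was not tested.

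Activation raised 7 of the 10 genes. The target and feedback genes Egln3, Bnip3 and Vegfa went from under 12 CPM in every naïve library to 98.8 CPM or more in every activated one, and Hif1a, Egln1, P4ha1 and Vhl rose by 2.25- to 6.43-fold. Egln2 was lower, and Arnt and Hif1an were not called. Over all tested genes, 57.5% were called between media and naïve, 28.5% higher and 29% lower (edgeR quasi-likelihood test, adjusted p of at most 0.01). In 8 of the 10 genes media and naïve libraries did not overlap, 7 of them higher in media, and for all tested genes such shares were 61.2% in either direction, 30.7% upward and 30.5% downward. The median log2 fold change was 2.12 for the 10 genes and -0.03 for all tested genes. In bulk RNA, fewer cells of a type and less RNA per cell cannot be told apart.

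Lactate lowered 4 of the 10 genes relative to media, namely Arnt, Vhl, Egln1 and P4ha1, by 1.37- to 1.60-fold. The count raised was 0 with edgeR, also at an unadjusted p under 0.05, and 0 with the likelihood ratio test, DESeq2 and limma voom. Over all tested genes 25.1% were called, 13.9% higher and 11.1% lower. In 5 of the 10 genes, the 4 called and Hif1an, the lowest media library lay above the highest lactate library, and such separation, in either direction, was seen for 44.7% of all tested genes, with 23.3% separated upward and 21.5% downward. The median log2 fold change was -0.45 for the 10 genes and -0.0016 for all. With the donor as a replicate block in the fit of 12 libraries, only Vhl was called among them (edgeR adjusted p = 0.00924). That fit called 992 of all tested genes, beside 3451 without the block. With the block fitted to the 8 activated libraries alone, a setting chosen after seeing the data, 4 were called, and 3654 of all tested genes. Without any 1 of media replicates 2, 3 and 4 or lactate replicates 1, 3 and 4, Arnt and P4ha1 missed the threshold and 2 genes were called. These fits called 2252 to 3066 of all tested genes. Arnt also missed it without lactate replicate 2 (adjusted p = 0.0184).

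**Figure D1:**
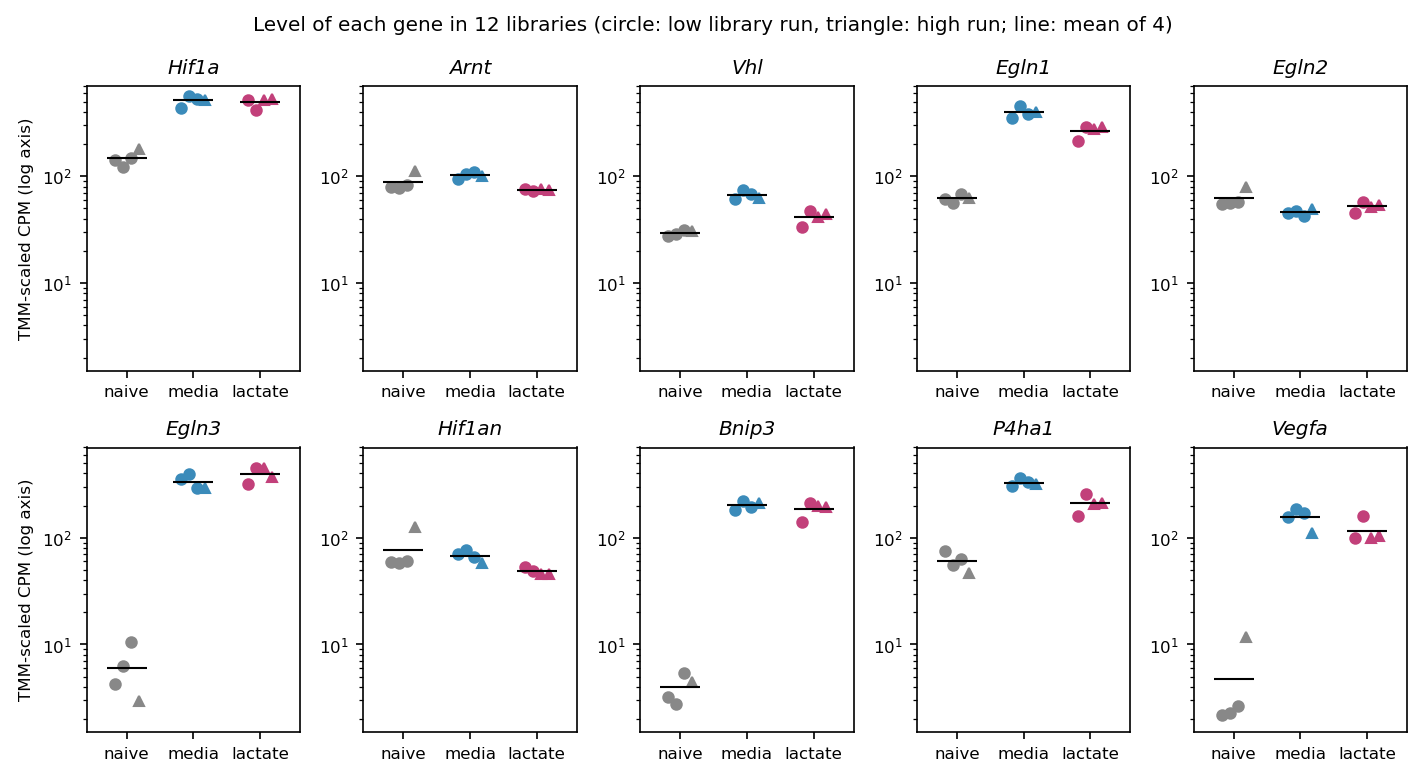
TMM-scaled CPM on a log axis for each of the 10 genes in the 12 libraries, with circles for the low run and triangles for the high run of library numbers and a line at the mean of 4. Egln3, Bnip3 and Vegfa sit below 12 CPM in every naïve library and at 98.8 CPM or more in every activated one, and the lactate points of Arnt, Vhl, Egln1, Hif1an and P4ha1 all lie below those of media.

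The α subunit gene Hif1a (ENSMUSG00000021109, GRCm38 chromosome 12, 73901375 to 73947530, plus strand) had 141, 123, 149 and 181 CPM in the naïve libraries, 432, 567, 527 and 522 in media and 521, 414, 514 and 525 in lactate. Every activated library was above every naïve one, and the activated groups overlapped. Activation in media raised Hif1a by 1.79 ± 0.13 on the log2 scale (SE, n = 4 per group, edgeR adjusted p = 1.93e-07). Lactate and media differed by -0.05 ± 0.13 (edgeR adjusted p = 0.779), with a 95% interval of -0.34 to 0.23. Without lactate replicate 2, the lowest library, this difference was 0.02. The exons of Hif1a overlap other annotated genes over 8.11% of their length, and whether counting used the strand is not given in the sources used here.

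Its partner Arnt (ENSMUSG00000015522, chromosome 3, 95434388 to 95497240, plus strand) had 79.1, 78.2, 82.8 and 112 CPM in naïve cells, 94.1, 106, 110.4 and 99.5 in media and 75.1, 72.8, 76.3 and 74.9 in lactate. The 4 lactate libraries were the closest together, with a mean of 74.8 ± 1.42 (SD), and lay below all media and all naïve libraries. Arnt was lower in lactate than in media by a log2 difference of -0.45 ± 0.11 (edgeR adjusted p = 0.00729), which became 0.0836 with the donor block and 0.0110 with a block by title number. It was lower in 3 of 3 donors and in both runs of library numbers. Against naïve, media gave 0.22 ± 0.11 (edgeR adjusted p = 0.105), which was called when naïve replicate 4 was left out (adjusted p = 0.000901), and lactate gave -0.24 ± 0.11 (adjusted p = 0.0768).

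Within each library, the ratio of the 2 subunit transcripts per length does not depend on library scaling. The log2 ratio of Hif1a to Arnt in TPM (a level per gene length, from the gene lengths of the table) was 1.20 ± 0.10 (SD, n = 4) in naïve, 2.76 ± 0.11 in media and 3.16 ± 0.14 in lactate. No 2 groups overlapped. The lactate libraries ranged from 2.95 to 3.25 and the media libraries from 2.64 to 2.86, a difference in means of 0.40 (exact two-sided permutation p = 0.0286, the smallest that 4 against 4 allows, 0.0343 adjusted over 12 tests of ratios).

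Among the brakes, Vhl (ENSMUSG00000033933, chromosome 6, 113623959 to 113631633, plus strand), the subunit that recognises hydroxylated HIF-1α, had 27.7, 28.6, 31.3 and 30.6 CPM in naïve, 60.7, 74.6, 67.6 and 62.5 in media and 33.3, 47.3, 41.4 and 44.1 in lactate. The 3 groups were fully separated, with lactate between naïve and media. Media exceeded naïve by 1.17 ± 0.12 on the log2 scale (edgeR adjusted p = 2.23e-06), and lactate was below media at -0.68 ± 0.12 (adjusted p = 0.000752). In the donors the lactate difference was -0.87, -0.51 and -0.50. Vhl was the one gene of the 10 called between lactate and media under all 26 alternatives. Lactate exceeded naïve by 0.49 ± 0.12 (edgeR adjusted p = 0.00191), which missed the threshold in the fit of these 2 groups alone (adjusted p = 0.0131) and without naïve replicate 2 (adjusted p = 0.0189), lactate replicate 3 (0.0111) or lactate replicate 4 (0.0159).

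Egln1 (ENSMUSG00000031987, chromosome 8, 124908587 to 124949324, minus strand) encodes PHD2, the main oxygen sensor of most cells. Its levels were 61.4, 55.8, 68.5 and 62.0 CPM in naïve, 352, 459, 379.9 and 402 in media and 215, 290.3, 275 and 289 in lactate, again with lactate between the other groups and no overlap. Media cells exceeded naïve cells by 2.69 ± 0.12 on the log2 scale (edgeR adjusted p = 5.56e-09), and lactate was below media at -0.58 ± 0.12 (adjusted p = 0.00225, or 0.0157 with the donor block). The donor differences were -0.71, -0.39 and -0.48.

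Egln3 (ENSMUSG00000035105, chromosome 12, 54178981 to 54203860, minus strand) encodes PHD3, whose gene is strongly induced by HIF. It had 4.23, 6.31, 10.5 and 2.97 CPM in naïve, 356, 392, 293 and 294 in media and 318, 449.7, 445 and 369 in lactate. The rise in media was 5.80 ± 0.34 on the log2 scale, or 55.6-fold (edgeR adjusted p = 2.79e-08). Media and lactate overlapped, at 0.24 ± 0.27 (adjusted p = 0.509), with an interval of -0.34 to 0.83.

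Egln2 (ENSMUSG00000058709, chromosome 7, 27158658 to 27166802, minus strand), the gene of PHD1, went the other way on activation. It had 54.6, 56.4, 57.5 and 78.9 CPM in naïve, 45.5, 47.1, 42.2 and 49.1 in media and 45.6, 57.4, 51.0 and 54.2 in lactate. All media libraries lay below all naïve ones, at -0.43 ± 0.12 on the log2 scale (edgeR adjusted p = 0.00837), a call lost without naïve replicate 4, the highest library, or without media replicate 1, 2 or 3. Lactate against media was 0.18 ± 0.12 (adjusted p = 0.281), with an interval of -0.09 to 0.45.

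The makeup of the 3 prolyl hydroxylase transcripts therefore differed between the groups. Their summed level was 142 ± 18.8 TPM (SD, n = 4) in naïve, 877 ± 105 in media and 760 ± 96.3 in lactate. Egln2 held 53.0% ± 5.60 of that sum in naïve cells, 6.54% ± 0.630 in media and 7.75% ± 0.614 in lactate. Egln3 held 5.45% ± 2.85, 49.5% ± 3.48 and 61.4% ± 2.45, and Egln1 held 41.6% ± 3.47, 43.9% ± 3.21 and 30.9% ± 2.02. Between media and lactate no library overlapped for Egln1, which was 13.1 percentage points lower on average, or for Egln3, which was 11.9 points higher (exact two-sided permutation p = 0.0286 each, 0.0343 adjusted over 12 tests). For Egln2 the difference was 1.21 points (exact permutation p = 0.0571, adjusted 0.0623). The share of Egln1 in media and naïve overlapped (exact permutation p = 0.371). The shares are parts of the same sum, so these tests are not independent. The level of Egln3 itself was not called between lactate and media.

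**Figure D2:**
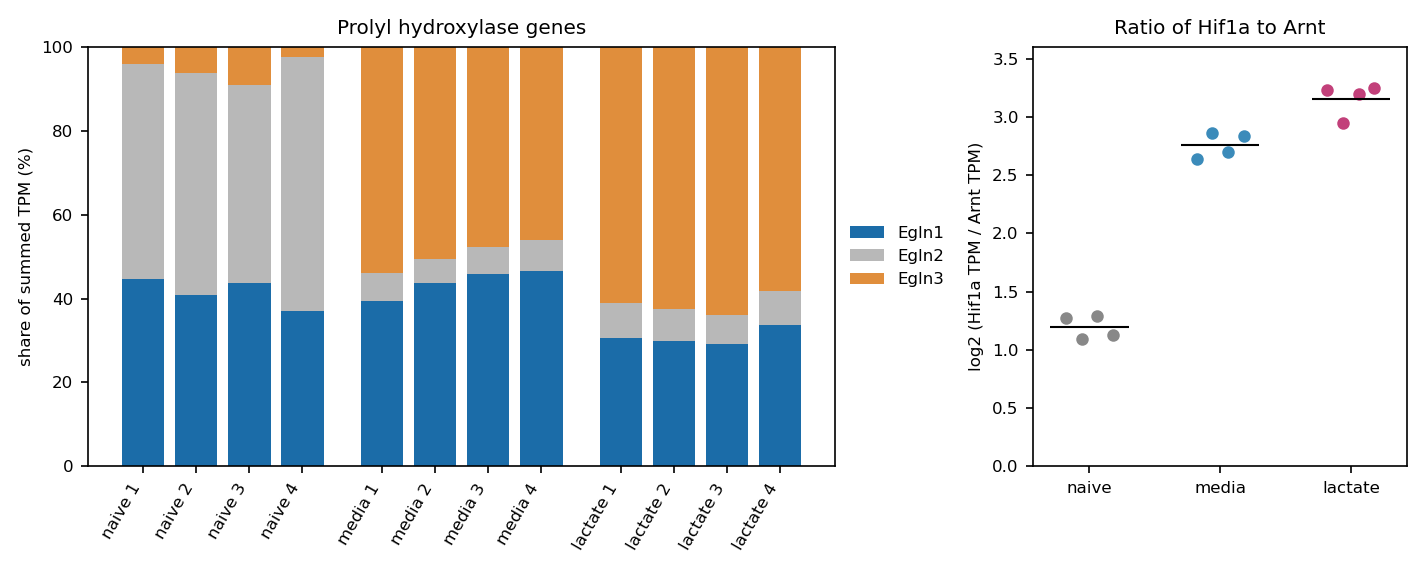
Left, share of Egln1, Egln2 and Egln3 in their summed TPM, in percent, as a stacked bar for each of the 12 libraries. Right, log2 ratio of Hif1a to Arnt TPM in each library with a line at the group mean. Egln2 is the widest band in each naïve library, and Egln3 holds 46.0% to 54.0% in media and 58.1% to 63.9% in lactate.

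Hif1an (ENSMUSG00000036450, chromosome 19, 44562850 to 44576274, plus strand), which encodes FIH, had 58.9, 57.4, 60.7 and 127 CPM in naïve, 70.2, 77.3, 66.0 and 57.8 in media and 53.1, 49.3, 45.4 and 46.1 in lactate. Naïve replicate 4 stood at more than all others. All lactate libraries lay below all media libraries, in 3 of 3 donors and in both runs, yet the model gave -0.48 ± 0.23 (edgeR adjusted p = 0.108), a difference that was not called. Without naïve replicate 4 the adjusted p was 0.00111, and in a fit of the media and lactate groups alone it was 0.00335. That library had the lowest summed CD8 T cell marker level, 2675 CPM. Media against naïve was -0.16 ± 0.22 (edgeR adjusted p = 0.535) and 0.19 without naïve replicate 4. Lactate against naïve was -0.65 ± 0.23 (edgeR adjusted p = 0.0199), with a range of -0.85 to -0.29 over libraries left out.

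Of the targets, Bnip3 (ENSMUSG00000078566, chromosome 7, 138890836 to 138909519, minus strand), a mitochondrial protein that directs mitochondria to autophagy, had 3.21, 2.76, 5.39 and 4.48 CPM in naïve, 180.3, 219, 192 and 212 in media and 139.9, 209.7, 196 and 195 in lactate. The increase in media was 50.5-fold, or 5.66 ± 0.22 on the log2 scale (edgeR adjusted p = 2.06e-09). Lactate and media overlapped and differed by -0.12 ± 0.17 (adjusted p = 0.627), with an interval of -0.49 to 0.26. Over 22.3% of its exon length Bnip3 overlaps Gm45507 on the opposite strand.

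P4ha1 (ENSMUSG00000019916, chromosome 10, 59323296 to 59373304, plus strand), the catalytic subunit of a collagen prolyl hydroxylase, had 75.3, 55.4, 63.5 and 46.8 CPM in naïve, 302, 361, 330.2 and 322 in media and 160.5, 255, 209 and 214 in lactate. The groups were separated, with lactate in the middle. Media exceeded naïve by 2.45 ± 0.16 on the log2 scale (edgeR adjusted p = 7.82e-08), and lactate was below media at -0.65 ± 0.16 (adjusted p = 0.00574). That value became 0.0485 with the donor block and 0.0116 with the block by title number. The donors gave -0.91, -0.37 and -0.59. Whether P4ha1 and Bnip3 differ in their response was not tested.

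Vegfa (ENSMUSG00000023951, chromosome 17, 46016993 to 46032369, minus strand), which encodes a secreted growth factor of blood vessels, had 2.20, 2.28, 2.64 and 11.8 CPM in naïve, 156, 186, 172 and 110.0 in media and 99.5, 158, 98.8 and 104 in lactate. The naïve libraries were all far below the activated ones, with replicate 4 above its group. Media exceeded naïve by 5.04 ± 0.51 on the log2 scale (edgeR adjusted p = 2.40e-06). The activated groups overlapped, and the difference of -0.44 ± 0.42 was not called (adjusted p = 0.436, interval -1.34 to 0.46), although lactate was lower in 3 of 3 donors, by differences of -0.64, -0.12 and -0.08.

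**Figure D3:**
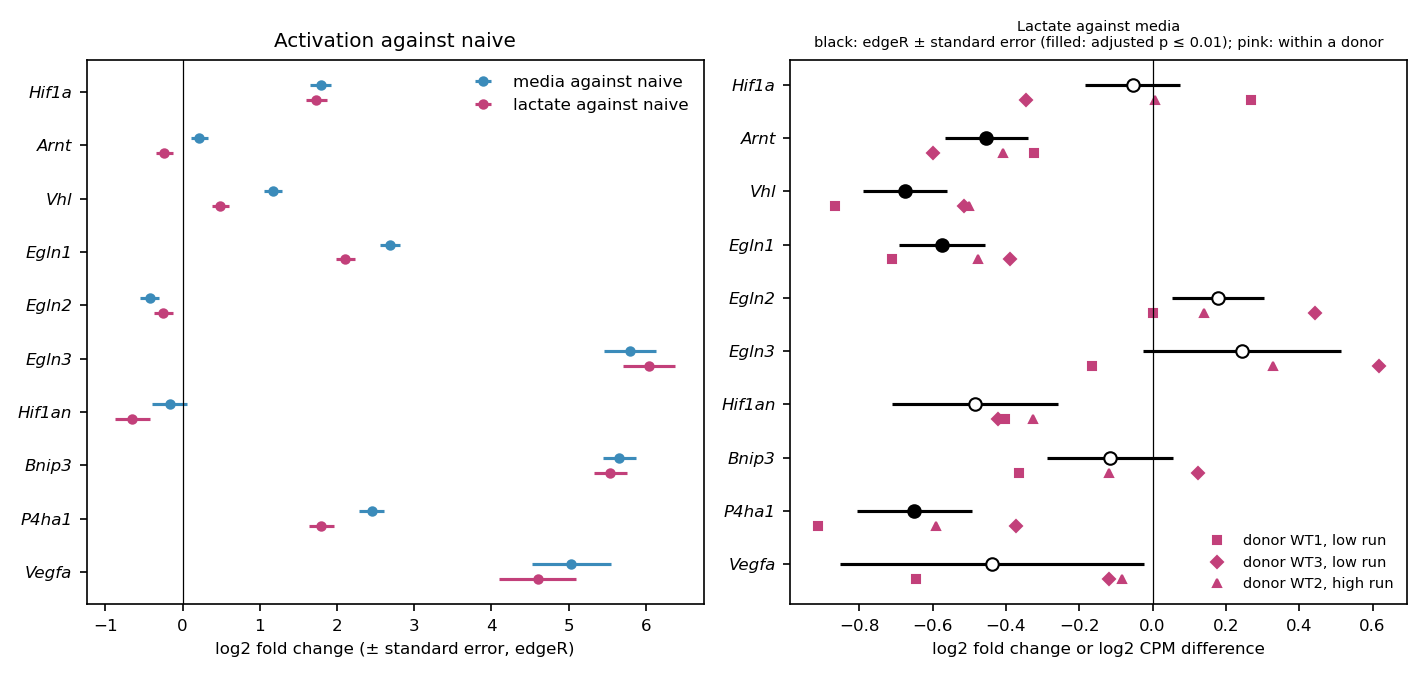
Left, log2 fold changes of media and of lactate against naïve for the 10 genes, with bars of 1 standard error from edgeR. Right, lactate against media, with edgeR estimates in black, filled where the adjusted p was at most 0.01, and log2 CPM differences within the 3 donors in pink. Arnt, Vhl, Egln1, Hif1an, P4ha1 and Vegfa were lower in each of the 3 donors.

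Lactate against naïve shares its naïve libraries with media against naïve. In it 7 of the 10 genes were higher and 0 lower, where 65% of all tested genes were called, 33% higher and 32% lower. The libraries did not overlap for 9 of the 10, 7 of them higher and 2 (Arnt and Hif1an) lower, beside 67.8% of all tested genes, 35% upward and 32.8% downward. The count of 0 lower from edgeR became 1, Hif1an, at an unadjusted p under 0.05, with DESeq2, with the likelihood ratio test and without naïve replicate 2 or 3. The log2 differences of Egln3, Bnip3 and Vegfa were 6.04, 5.54 and 4.60, beside 5.80, 5.66 and 5.04 in media. For Egln1, P4ha1 and Hif1a they were 2.11, 1.80 and 1.73, beside 2.69, 2.45 and 1.79.

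Per length, the order of the 10 genes turned over with activation. In naïve cells Hif1a led with 86.2 TPM, followed by Egln2 with 75.7, and Egln3, Bnip3 and Vegfa came last with 7.62, 5.99 and 3.86. Only Egln2 and Egln1, and Vhl and Egln3, were neighbours with ranges that did not overlap. In media Egln3 had 436 TPM, Egln1 384, Bnip3 307, Hif1a 301 and P4ha1 277, and of these neighbours only Egln1 and Bnip3 were separated. Arnt with 44.4 TPM and Hif1an with 35.7 closed the order. In lactate Egln3 stood apart from the rest at 468 TPM, before Hif1a with 264, Bnip3 with 257, Egln1 with 234 and P4ha1 with 161, whose neighbouring ranges overlapped. Arnt with 29.5 and Hif1an with 23.2 were again last, here without overlap.

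Genes with a pattern like these across the 12 libraries were listed by Pearson's r of log2 CPM, as a description over points that share the 3 conditions. Egln1 was most like Gpi1 (r = 0.996), a glycolytic enzyme, and Ero1l (r = 0.994), an oxidase of protein folding. P4ha1 was most like Ankrd37 (r = 0.994), and Bnip3 had Lmtk3 (r = 0.998) and the glycolytic enzyme Pgam1 (r = 0.997) first. Hif1a was most like Gfi1 (r = 0.993), a transcriptional repressor, Egln3 like Tmem107 (r = 0.996), and Vegfa like Pold3 (r = 0.994), a subunit of a DNA polymerase. Vhl was most like Helb (r = 0.984) and then Gbe1 (r = 0.979), the glycogen branching enzyme. The genes that varied least between the groups had lower values, with Pde4d for Arnt (r = 0.978), Nt5e for Hif1an (r = 0.973) and Rabac1 for Egln2 (r = 0.957).

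The wider pathway was read from lists of named genes. Of 44 measured HIF-1 targets outside glycolysis, 18 were lower in lactate than in media and 3 were higher, beside 11.1% and 13.9% of all tested genes, and their median log2 difference was -0.63. The 18 fell to 9 with the donor block and to 11 without lactate replicate 4. Calls over all tested genes, in either direction, fell from 3451 to 992 and to 2391 in the same fits. Among the called genes the 4 largest decreases were Vldlr, a lipoprotein receptor (-2.80), Tmem45a (-1.91), Stc2, a secreted glycoprotein (-1.90), and Rora, a nuclear receptor (-1.81). Among the higher genes were Rbpj, the DNA-binding factor of Notch signalling (1.24), and the repressor Nfil3 (0.98). Most of the same list was higher in media than in naïve cells, with 33 higher and 4 lower, beside 28.5% and 29% of all tested genes, at a median of 2.01.

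Of 20 measured targets in glycolysis and glucose entry, 19 were higher in media than in naïve cells and 0 lower, beside 28.5% and 29% of all tested genes, at a median log2 difference of 3.51. The 0 held for edgeR at an unadjusted p under 0.05, DESeq2 and limma voom. Between lactate and media 4 were lower and 1 higher, beside 11.1% and 13.9% of all tested genes, at a median of -0.21. The lower ones were Aldoc, Gpi1, Pfkfb3 and Aldoa, among which Pfkfb3 makes the activator of phosphofructokinase (-0.61), and the higher one was Ldha. With the donor block, which called 992 of all tested genes in place of 3451, 1 was lower and 0 higher.

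Partners of Vhl were read in the same way. Of 18 measured genes of the VHL ligase and of HIF protein stability, 7 were higher in lactate than in media and 1 was lower, beside 13.9% and 11.1% of all tested genes, at a median log2 difference of 0.35. Among the called genes the 4 largest increases were Ube2m (0.91), which loads NEDD8 onto cullins, Cul2 (0.72), the scaffold of the VHL ligase, Elob (0.71), an adaptor between VHL and Cul2, and Nedd8 itself (0.57). The second adaptor, Eloc, rose by 0.53, and Rack1 and Cops5 were also higher. Senp1, a SUMO protease, was lower (-0.44). With the donor block, which called 992 of all tested genes in place of 3451, 4 were higher and 0 lower. Elob rose from 64.0 ± 8.18 CPM (SD, n = 4) in media to 104.8 ± 5.92 in lactate and Cul2 from 71.8 ± 11.5 to 118 ± 11.5, where Vhl went from 66.4 ± 6.22 to 41.5 ± 6.02.

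**Figure D4:**
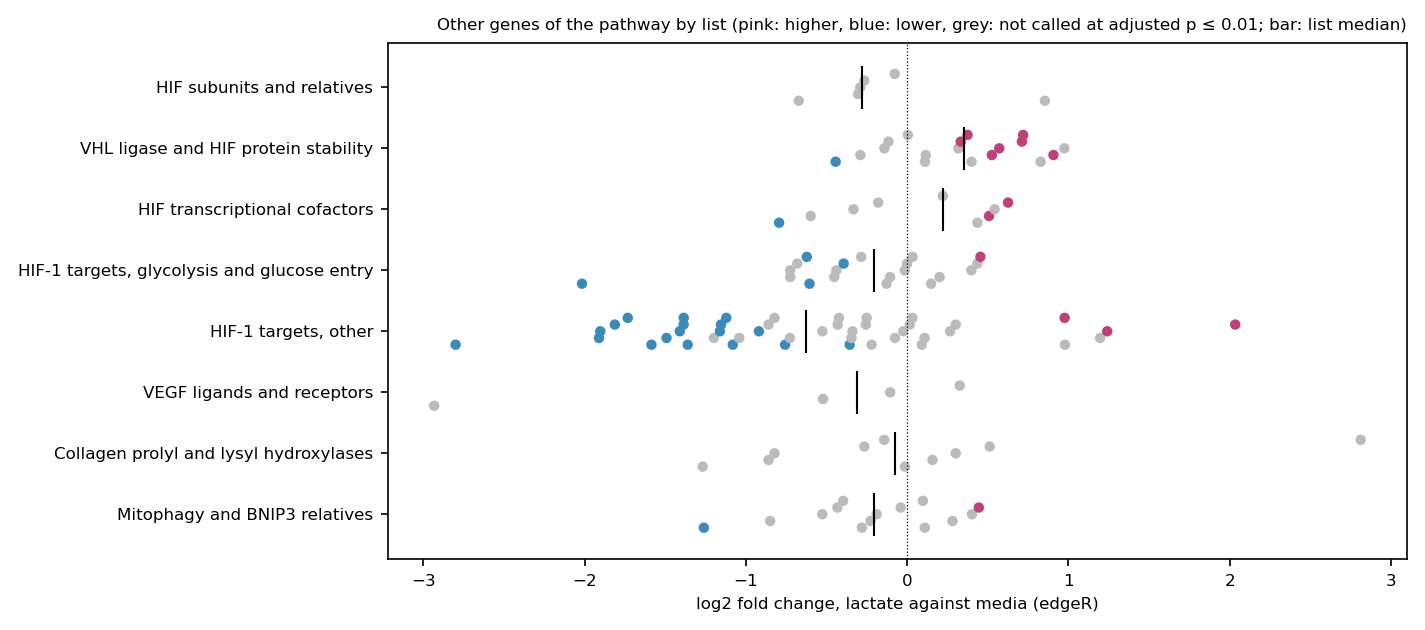
Log2 fold change of lactate against media from edgeR for each measured gene of 8 pathway lists, pink where higher and blue where lower where the adjusted p was 0.01 or less. The bar stands at the median of each list. The median lies at -0.63 for HIF-1 targets outside glycolysis and at 0.35 for the VHL ligase and HIF stability list.

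Relatives of the subunits gave 0 calls from the edgeR quasi-likelihood test between lactate and media among 6 measured genes. At an unadjusted p under 0.05, 1 was higher and 2 were lower. With the likelihood ratio test 1 was lower, and with DESeq2 2 were lower. The HIF-2α gene Epas1 had 6.45 CPM in media and 6.11 in lactate, where Hif1a had 512 and 493. Epas1 was singled out after its values were seen. Arnt2, Sim2 and, among the targets, Ppp1r3c were not found by symbol in the count table. Of 9 genes listed by name as cofactors, Ruvbl2 (0.63) and Ssbp1 (0.51) were higher in lactate and the coactivator Ncoa2 (-0.79) was lower, beside 13.9% higher and 11.1% lower of all tested genes. Whether each of them acts with HIF-1 in these cells was not tested.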

How the data were processed

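The 12 libraries of CD8+ T cell RNA fell into 3 groups of 4. The authors aligned reads with STAR 2.7.5b to GRCm38, left out PCR duplicates and assigned unique alignments to Ensembl genes with featureCounts, and the deposited values are raw counts with gene lengths, from stranded libraries. The table holds 13780 genes, and totals of 14726904 to 21478137 counts set the precision. Of the identifiers, 13771 were found in GENCODE M21, which gave the coordinates.

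Groups, library numbers and donor tags came from the labels. The record gives 4 mice for naïve cells and 5 for activated cells. The same donor tags recur in both runs and were taken as different mice in each, which matches that number of 5. Deviations from the group means correlated at r = 0.374, 0.553 and 0.211 in the 3 donors with both conditions, and the shared mouse is why donors pair these libraries. Media 2 and lactate 2, from different donors, had r = 0.297. Library numbers form a low and a high run, with 3 and 1 media and 2 and 2 lactate libraries.

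As in the study's methods, which name edgeR's general linear models and TMM, the filter required 1 CPM or more in 3 libraries and kept 13767 genes. Counts were scaled by TMM and fitted in edgeR 4.0.16 (R 4.3.3) with the quasi-likelihood method, 3 groups and without a block, with two-sided tests and Benjamini-Hochberg adjustment over all tested genes at 0.01. Standard errors are the log2 fold change over the square root of F, and intervals use the 95% t quantile. TPM used the table's lengths over its genes. Ratios and levels were tested by exact permutation over 70 arrangements, without pairing by donor.

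The genes and the lists were chosen with earlier results of these data known. Genes named from a list are those called between lactate and media, at most 4 per direction by size, and list members without values. Some genes this rule selects are not reported here. The 3 genes with the highest r are the most alike, of which 1 to 3 are given. Alternatives were limma voom 3.58.1, DESeq2 1.42.0, the likelihood ratio test, other scalings, filters, blocks by title number and donor, a run term, a threshold of 0.05, the 2 compared groups alone and each library left out. Eloc, Rack1 and Cops5 lie outside the rule and were named after their values were seen.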

Additional observations from a re-analysis of the deposited data

Results flagged for a closer look

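In groups of 4, a library was set apart where its gap to the nearest other library, over the range of the group, exceeded Dixon's 95% critical value. This held for 6 of 30 groups of gene and condition. The nominal rate is about 1 in 20 for independent groups, but these groups share the same 12 libraries, and no excess was tested. Naïve replicate 4 was the high library in 4 of them, with 112 CPM for Arnt, 78.9 for Egln2, 127 for Hif1an and 11.8 for Vegfa. It is the only naïve library of the high run of library numbers, had the lowest summed level of CD8 T cell markers among naïve libraries (2675 CPM) and had the lowest red cell sum (98.2 CPM). Their part in the values was not tested. Lactate replicate 2 was the low library for Hif1a, with 414 CPM, and the high one for Vegfa, with 158 CPM.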

How the results depend on the processing

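The direction held under every alternative for each gene and comparison except for Hif1an in media against naïve, 0.19 without naïve replicate 4 (range -0.36 to 0.19 over libraries left out), and Hif1a in lactate against media, 0.022 without lactate replicate 2 (range -0.13 to 0.022). Between lactate and media, 4 of the 10 genes were called, all lower. This became 2 with the replicate block by title number and 1 with the block by donor, and leaving out 1 library gave 2 to 5. Leave-one-out gave 0 to 1 genes lower in media than in naïve (1 in the fit of all 12) and 0 to 1 lower in lactate than in naïve (0). The first was 0 with total counts only and with the 2 groups alone. The second was 1 with the likelihood ratio test, DESeq2 or a threshold of 0.05.

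Of the pathway list genes, 39 were called between lactate and media, 16 with the donor block, and 25 to 56 when 1 library was left out, 25 being without lactate replicate 4. The HIF-1 targets outside glycolysis gave 18 lower, 9 with the donor block and 11 to 21 with 1 library left out. Their 3 higher genes became 5 with the likelihood ratio test, DESeq2, the 2 groups alone, a threshold of 0.05 or the donor block on activated libraries alone, and 1 with the donor block on all 12. The glycolytic list had 4 lower, 7 with DESeq2 or a threshold of 0.05, and 1 with the donor block. Its 1 higher gene became 2 with the likelihood ratio test, DESeq2 or a threshold of 0.05, 3 with the 2 groups alone, 0 with upper quartile scaling or either donor block, and 0 to 3 with 1 library left out. For the VHL ligase list, 7 higher became 4 with the donor block, and 1 lower became 0 with either donor block or a run term and 0 to 1 with 1 library left out.

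With raw counts in place of per-length levels, Egln2's share differed from naïve by -41.6 points in media and -40.2 in lactate, in place of -46.4 and -45.2, and Egln3's by 38.2 and 50.6, in place of 44.1 and 55.9. Over all genes, 3451 were called between lactate and media, 992 with the donor block on 12 libraries and 3654 with it on the 8 activated libraries. The cause was not tested. The title numbers follow the donors only in part. With tags read within each run, media and lactate share a donor for numbers 1 and 4 (r of 0.374 and 0.553). For numbers 2 and 3 (r of 0.297 and 0.0038) they do not, and naïve libraries carry no donor tag. The median of all genes moved by less than 0.1 on the log2 scale under other scalings. Depth left 38 or more counts for each of the 10 HIF-1 pathway genes in each library.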

Other observations

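Around Bnip3, Vegfa and P4ha1, neighbouring genes of the same processes were described by lists. Of 14 measured mitophagy genes, 1 was higher and 1 lower in lactate than in media, beside 13.9% and 11.1% of all tested genes. DESeq2 called 2 higher and 3 lower. With edgeR at an unadjusted p under 0.05, 2 were higher and 4 lower. Pink1, the kinase that marks damaged mitochondria, went from 61.0 ± 13.7 CPM (SD, n = 4) in media to 25.5 ± 4.26 in lactate, a log2 difference of -1.26 ± 0.20 (edgeR adjusted p = 0.000442), and naïve cells had 126 ± 29.5. Fkbp8, a mitochondrial receptor for autophagy, was higher by 0.44 ± 0.08 (edgeR adjusted p = 0.000919). Calcoco2 was not found by symbol in the count table.

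None of the 10 measured collagen prolyl and lysyl hydroxylase genes was called between lactate and media by the edgeR quasi-likelihood test. At an unadjusted p under 0.05, 4 of them were lower, and 1 was lower with DESeq2 and 1 with the likelihood ratio test. Of the 4 measured VEGF ligands and receptors, 0 were called by edgeR or DESeq2 and 1 was lower at an unadjusted p under 0.05. P4ha2 and Plod2, looked at after their values were seen, had 112 and 132 CPM in media and 63.5 and 72.9 in lactate (edgeR adjusted p = 0.0744 and 0.0740). P4ha3, Vegfc, Vegfd, Pgf, Kdr and Flt4 were not found by symbol in the count table, and P3h2 had 0 counts in the media libraries. The receptor genes Flt1 and Nrp2 were below 0.2 CPM on average in both activated groups.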
